A study of Mus musculus with 89 samples.

Results

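Clumps of jejunal epithelium that carried transcripts of dividing cells were compared with clumps from the same mice that carried none. Small tissue fragments were obtained by incomplete dissociation of the jejunum of C57BL/6 male mice in EDTA, sorted by DNA content and sequenced by MARS-seq, in which each well holds 1 clump and each captured mRNA is counted once through its unique molecular identifier (UMI). The mice of the clumps were 3 months old by the sample labels and were fed regular chow, and the labels name no treatment and no modified allele. Sorted pairs, with a 4n DNA content, were taken from each of mice 1 to 5, whereas larger clumps, with more DNA than 4n, were taken from mice 1, 4 and 5 alone. A single cell that has copied its DNA but not yet divided also has a 4n content, so the gate alone does not separate such a cell from a pair of resting cells.

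A clump was called dividing when its well held at least 3 UMIs of the marker genes Mki67, Top2a, Ccnb1, Ccnb2 and Cdk1 together, and negative when it held 0. Both classes had to pass the same filters, which kept wells with over 1000 UMIs, with 200 genes or more, and with a mitochondrial share of UMIs up to 30%. The apolipoproteins Apoa1, Apoa4 and Apob, which are high in villus enterocytes, had to make up under 0.5% of UMIs, and at most 2 UMIs of lysozyme (Lyz1), a Paneth cell gene, were allowed. Of 15626 clump wells of mice 1 to 5, 2375 passed, and 847 of them were dividing, 451 held 1 or 2 marker UMIs and 1077 were negative. The wells were thus chosen by measured values, and the 5 marker genes were left out of every test across genes.

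The intestinal crypt is the site of cell renewal in this tissue. Stem cells at the crypt base and the transit-amplifying cells above them divide rapidly, copy their DNA in S phase, condense and separate the chromosomes in mitosis, and then stop dividing as they move onto the villus and mature into absorptive enterocytes or secretory cells. Mki67 encodes the proliferation antigen Ki-67, Top2a the topoisomerase that untangles replicated chromosomes, Ccnb1 and Ccnb2 the B-type cyclins, and Cdk1 the kinase that these cyclins activate at entry into mitosis.

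The 847 dividing clumps were spread unevenly over the mice. Mouse 1 gave 45, mouse 2 gave 19, mouse 3 gave 61, mouse 4 gave 717 and mouse 5 gave 5, so that mouse 4 held 84.7% of them. Larger clumps made up 759 of the 847 (89.6%) and pairs 88 (10.4%). In mouse 1 pairs were 4 of 45 dividing and 93 of 282 negative clumps. In mouse 4 they were 4 of 717 and 129 of 373. The classes of these mice thus also differed in clump size, which thinning does not change. The dividing clumps lay on 32 plates, with 200 (23.6%) on the plate that held most. Negative clumps numbered 282, 123, 212, 373 and 87 in mice 1 to 5. The tests were therefore made on values per mouse, with the mouse as the replicate, and p-values measure the spread between mice. Counts pooled over wells are given as descriptions.

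Top2a was detected in 699 of the dividing clumps (82.5%), Mki67 in 713 (84.2%), Ccnb2 in 617 (72.8%), Cdk1 in 514 (60.7%) and Ccnb1 in 408 (48.2%). All 5 genes were detected together in 201 clumps (23.7%), and only 1 of them in 23 (2.72%). The median clump held 7 marker UMIs and the highest 94. At the threshold, 137 clumps (16.2%) had exactly 3 marker UMIs, and 176 wells with 2 lay just outside it. These counts describe how the clumps were chosen.

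Depth differed between the classes. The median dividing clump held 6177, 3818, 7596, 11909 and 17557 UMIs in mice 1 to 5, and the median negative clump 3021, 2733, 4057.5, 2640 and 1592 UMIs. Depth was higher in the dividing class in each of the 5 mice, and a deeper well reaches 3 marker UMIs more readily. Every well was therefore thinned to 1000 UMIs before the wells of a mouse were summed, and levels are given as counts per 1000000 UMIs of the thinned sum (CPM). Before thinning, the sums held 87537 to 10162707 UMIs for the dividing class (median 368485) and 178662 to 1683554 UMIs for the negative class (median 1416021). In mouse 5 the dividing sum rests on 5 wells, so that 1 UMI equals 200 CPM there and a value of 0 allows up to 600 CPM.

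**Figure D1:**
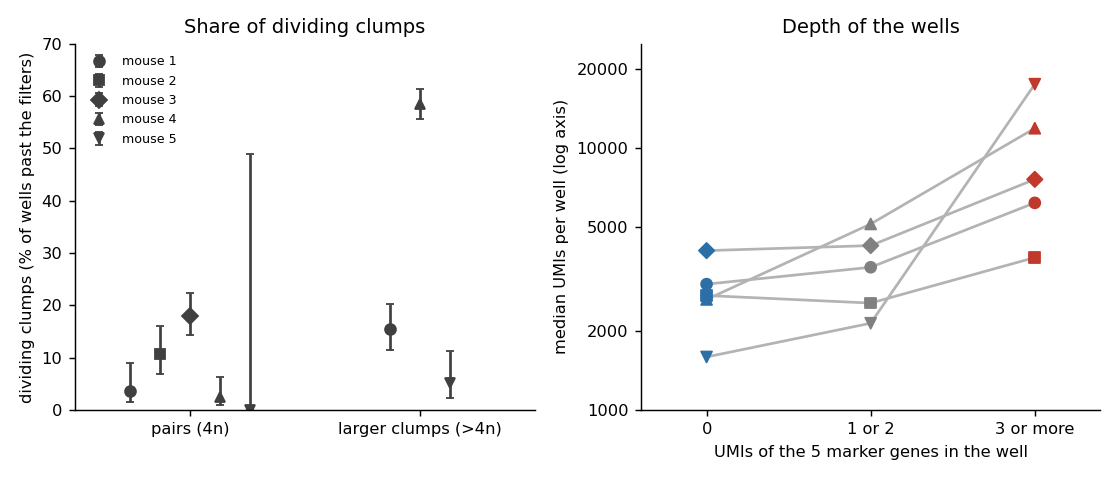
Left, percent of wells past the filters that were dividing, for each mouse and DNA content, with 95% Wilson intervals; right, median UMIs per well (log axis) of each mouse for wells with 0, 1 or 2, and 3 or more marker UMIs. The larger clumps of mouse 4 stand at 58.5% and every other group at 18.0% or less, and in every mouse the dividing wells had the highest median depth.

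The share of dividing clumps varied widely between mice, and its difference between larger clumps and pairs did not pass a permutation test, which does not show that the shares were alike. Among pairs, 3.60%, 10.7%, 18.0% and 2.52% of wells past the filters were dividing in mice 1 to 4, and 0 of 4 wells in mouse 5, which allows a share of up to 75.0% by the limit of 3 counts (95% Wilson upper bound 49.0%). Among larger clumps the share was 15.4% in mouse 1 (95% Wilson interval 11.5 to 20.2), 58.5% in mouse 4 (55.7 to 61.3) and 5.05% in mouse 5 (2.18 to 11.3). The intervals cover counting error only. The means were 26.3% ± 28.4 (SD, n = 3) and 6.96% ± 7.33 (SD, n = 5), a difference of 19.4 percentage points (two-sided permutation test over all values, p = 0.143, where 0.0179 is the smallest p possible). That test exchanged the values freely, although mice 1, 4 and 5 gave a value to both groups, so its p is not exact. The same limit holds for the alternatives below, apart from the test within the mouse. Within mice 1, 4 and 5, which gave both kinds of clump, the difference was 24.3 points and larger clumps were higher in 3 of 3 mice (exact permutation within the mouse as replicate block, p = 0.25, the smallest possible, so that this test could not pass). Without mouse 4 the difference was 2.14 points. When the marker genes were counted after every well had been thinned to 1000 UMIs, it was 0.787 points (permutation over all values, p = 0.554), where the shares themselves averaged 1.77% and 0.984%. With 1 marker UMI required after thinning it was 8.52 points (p = 0.393, the same permutation), with 5 required at full depth 15.0 points (p = 0.107) and in wells over 2000 UMIs 20.0 points (p = 0.143).

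The identity of the clumps was checked on markers that the choice had not used. Genes that act in mitosis other than the 5 markers (72 genes) summed to 4533, 4474, 3918, 3184 and 2000 CPM in the dividing clumps of mice 1 to 5, against 369, 439, 448, 796 and 678 CPM in the negative clumps. Genes of DNA replication (70 in the table) summed to 2978, 3105, 2197, 2547 and 1000 CPM against 567, 642, 712, 1019 and 747 CPM. The mitosis list did not overlap between the classes, with a ratio of the means of 6.63. The replication list overlapped only through mouse 5 of the dividing class, with a ratio of 3.21. Since these genes are transcribed in the same cells as the markers that chose the wells, their direction is not independent of the choice.

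Stem cell genes were also higher in the dividing clumps. The 27 genes of the intestinal stem cell list summed to 1311, 1368, 1525, 1939 and 2000 CPM in dividing clumps and to 408, 545, 632, 912 and 517 CPM in negative clumps, with no overlap. Its defining members were sparse at this depth. Lgr5, the receptor that marks stem cells at the crypt base, was at 44.4, 0, 16.4, 16.7 and 0 CPM in dividing clumps and at 10.6, 16.3, 4.72, 18.8 and 11.5 CPM in negative clumps, which overlapped. Smoc2 was at 0, 158, 98.4, 89.3 and 0 CPM against 7.09, 32.5, 9.43, 37.5 and 23.0 CPM, again with overlap. Olfm4, Ascl2 and Slc12a2 were each higher in the dividing clumps of 4 of 5 mice. Their means were 52.0, 28.2 and 89.3 CPM against 12.4, 6.6 and 45.7 CPM. Each was at 0 CPM in its lowest dividing sum, so these overlapped too.

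The negative clumps could not be called quiescent crypt clumps from their markers. The absorptive enterocyte list (53 genes, without the 3 apolipoproteins of the filter) summed to 23770, 20070, 23580, 9335 and 10830 CPM in negative clumps and to 2689, 4000, 5934, 4346 and 5800 CPM in dividing clumps. The classes did not overlap, and the level in negative clumps was 17500 CPM ± 6960 (SD, n = 5) against 4550 CPM ± 1350. In the 1918 wells with an apolipoprotein share of at least 0.5% the same list reached 60000 CPM ± 19800 (SD, n = 5). The negative clumps thus lay between the dividing clumps and the villus clumps in enterocyte expression, with stem cell genes at a mean of 603 CPM, against 208 CPM in the wells with the higher apolipoprotein share. Antimicrobial genes of the lower villus stood at 24200 CPM ± 11400 in negative clumps and 23600 CPM ± 6740 in those wells, against 11000 CPM ± 8940 in dividing clumps. They are called negative clumps here, after the rule that chose them. In clumps of several cells, a lower level of a cell type's genes can mean fewer such cells or less RNA per cell, and these cannot be told apart.

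**Figure D2:**
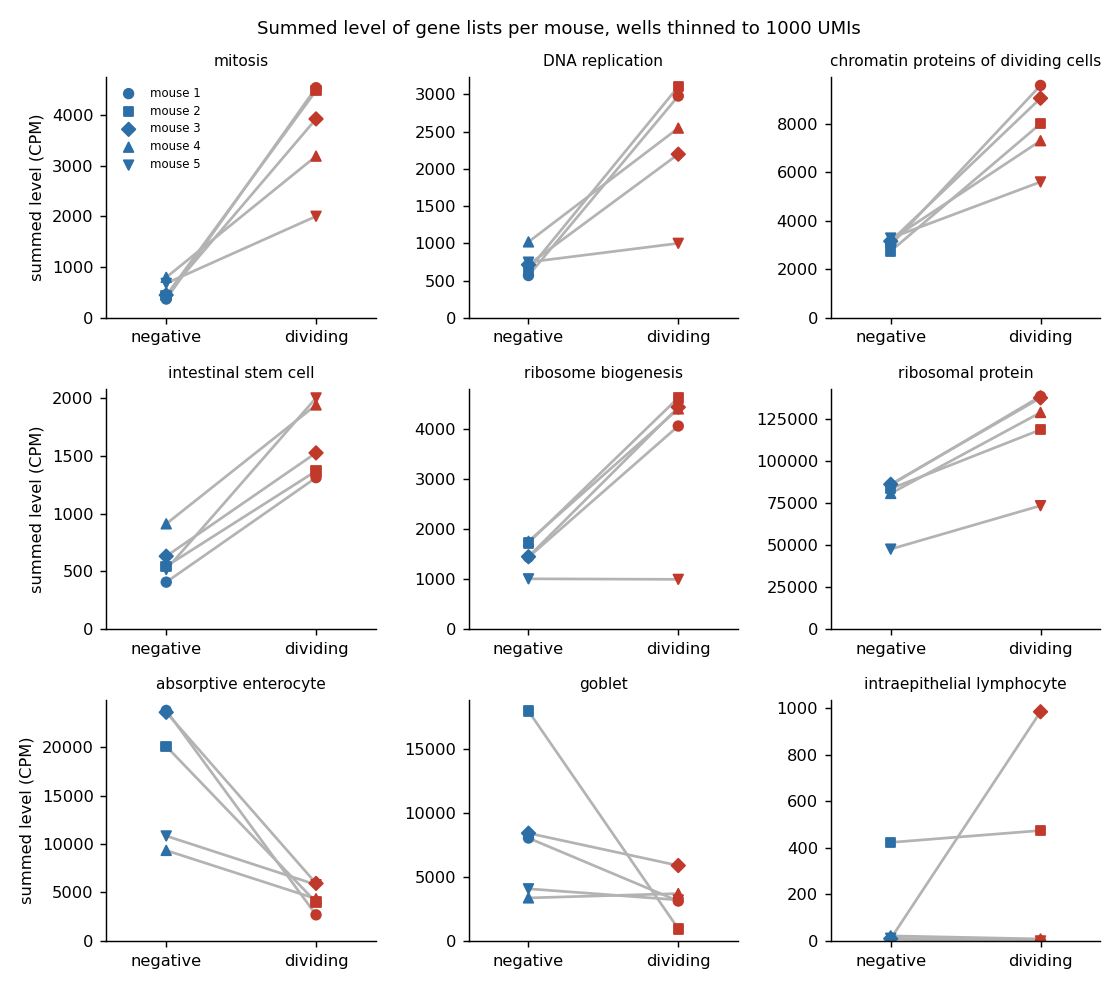
Summed level of 9 gene lists (CPM, wells thinned to 1000 UMIs) in the negative (blue) and dividing (red) clumps of each mouse, with the values of 1 mouse joined. The mitosis, stem cell and ribosomal protein lists are higher in the dividing clumps of all 5 mice and the absorptive enterocyte list lower in all 5, while the goblet list is lower in 4 and the lymphocyte list is above 30 CPM only in mouse 2 (both classes) and in the dividing clumps of mouse 3.

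Across all genes, 167 of 1402 tested genes (11.9%) passed the test between dividing and negative clumps, of which 36 rose (2.57%) and 131 fell (9.34%). The test was edgeR's quasi-likelihood test on the thinned sums of 5 mice, with Benjamini-Hochberg adjustment at 0.05. The groups of 5 mice did not overlap for 8.63% of the tested genes, and their log2 changes had a median of 0.04. A gene entered the test when it reached 95.2 CPM in 5 of the 10 sums at 1000 UMIs, or 17.6 CPM at full depth, so that a gene high in only 1 class could enter through that class and then had to differ. Counts over the tested members of a list are therefore descriptions, and the fit with no filter on low counts, which covers nearly all members, is given beside the lists where this matters. That fit called 428 of 17297 genes (2.47%), of which 96 rose (0.555%) and 332 fell (1.92%), with a median of −0.23. With the mouse as a replicate block, 316 genes passed (22.5%), of which 90 rose (6.42%) and 226 fell (16.1%), and they included all 167. Without mouse 4 the test called 179 genes, without mouse 1, 3 or 5 it called 98, 93 and 267. At full depth, without thinning, 5811 genes could be tested and 1009 passed (17.4%), of which 463 rose (7.97%) and 546 fell (9.4%). Within the pairs alone edgeR called 0 of 2015 genes, with 322 at an unadjusted p under 0.05, and DESeq2 called 26. Only mice 2 and 3 had enough dividing pairs to enter that fit. Within larger clumps alone, which came from mice 1, 4 and 5, edgeR called 51 of 1726 genes.

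Genes of mitosis rose. Ccna2, which encodes the cyclin of S phase and early mitosis (chromosome 3, 36564865 to 36572150, minus strand, GRCm38), was at 222, 105, 311, 172 and 200 CPM in the dividing clumps of mice 1 to 5 and at 7.09, 8.13, 14.2, 34.9 and 46.0 CPM in the negative clumps. Its log2 change was 2.95 ± 0.48 (SE, adjusted p = 0.000926). Ube2c, the ubiquitin-conjugating enzyme of the anaphase-promoting complex (chromosome 2, 164769898 to 164778822, plus strand), was at 489, 263, 344, 290 and 200 CPM against 17.7, 16.3, 18.9, 72.4 and 57.5 CPM, with a log2 change of 2.80 ± 0.46 (SE, adjusted p = 0.000973). Every dividing sum of both genes lay above every negative sum. They were the only 2 genes of the mitosis list that could be tested at 1000 UMIs per well, and both entered through the dividing sums, since neither reached the filter in any negative sum. With no filter all 72 genes of the list were tested, of which 30 rose and none fell, and all 72 changes were positive (median 2.22). Of all genes in that fit 0.555% rose.

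At full depth 29 of the 72 mitosis genes passed the filter, of which 28 needed the dividing sums to do so, and 1 reached it in all negative sums. Of the 29, 28 rose and none fell, where 7.97% of all tested genes rose, and the filter largely fixes this count. The median log2 change of the list was 2.99 against a median of 0 over all tested genes. Pttg1, or securin, which inhibits the protease separase until anaphase, did not pass (log2 change 0.61 ± 0.42, adjusted p = 0.333). Examples, taken from the list after its values were known, were Nusap1 and Tpx2, which organise the spindle (log2 change 4.14 ± 0.48 and 4.02 ± 0.50, adjusted p = 0.00022 for each), Cdc20, the activator of the anaphase-promoting complex (4.00 ± 0.64, adjusted p = 0.00068), and Cenpe, the kinetochore motor (3.43 ± 0.43, adjusted p = 0.00022). Each was higher in the dividing clumps of 5 of 5 mice. Birc5, or survivin, changed by 2.66 ± 0.41 (adjusted p = 0.000562). Leaving out mouse 4, which gave most dividing clumps, left 24 genes of the list past the filter, of which 24 rose, and leaving out mouse 5 left 58, of which 57 rose, and the same limit holds for these counts.

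DNA replication genes rose in part. With no filter 8 of all 70 rose and none fell, with 65 positive changes and a median of 1.21, where 0.555% of all genes rose. At full depth 27 passed the filter, 2 of them in all negative sums, and 21 rose and none fell, with a median log2 change of 1.88. Of all tested genes 7.97% rose there. Of the 2 that reached the filter in all negative sums 1 rose, so that nearly all the rises were of genes that needed the dividing sums. Mcm4, Mcm5, Mcm6 and Mcm7, subunits of the replicative helicase, rose by 2.5 ± 0.36, 2.92 ± 0.61, 2.23 ± 0.39 and 2.19 ± 0.44 on the log2 scale, with adjusted p of 0.000322, 0.00339, 0.00102 and 0.00288. Rrm1, the large subunit of ribonucleotide reductase, rose by 2.47 ± 0.43 (adjusted p = 0.00102) and the thymidine kinase Tk1 by 2.86 ± 0.45 (adjusted p = 0.000636). Pcna, the sliding clamp of the DNA polymerases, had one of the smaller changes among those that passed, 1.00 ± 0.28 (adjusted p = 0.0229). At 1000 UMIs per well Pcna was the only gene of the list that could be tested, at 133, 105, 164, 153 and 0 CPM against 70.9, 40.7, 23.6, 67.0 and 103 CPM. These values overlapped between the classes, and Pcna did not pass there (log2 change 0.98 ± 0.42, adjusted p = 0.148, or 0.0366 with the replicate block).

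At 1000 UMIs, most dividing clumps held transcripts of both phases. Of the 847 dividing clumps, 772 (91.1%) held at least 1 UMI of the mitosis list, 721 (85.1%) at least 1 UMI of the replication list and 665 (78.5%) both. Among the 1077 negative clumps these counts were 348 (32.3%), 458 (42.5%) and 196 (18.2%). A negative clump was therefore not empty of cell cycle transcripts, and 467 (43.4%) held no UMI of either list. These counts pool the wells of all mice, and mouse 4 gave most dividing clumps. By mouse, both lists were found in 60.0% to 86.7% of dividing and 8.51% to 28.4% of negative clumps. A clump holds several cells, so UMIs of both lists can come from different cells.

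The promoters of the genes that rose were examined for 3 sequence elements of cell cycle genes. CCAAT boxes and the cell cycle genes homology region (CHR, TTTGAA) are known from promoters of mitotic genes, and E2F elements from promoters of replication genes. RefSeq windows (GRCm38.p6, 250 bases before to 50 after the first listed start) were found for 22 of the 28 mitosis genes and 16 of the 21 replication genes that rose at full depth, and for 3889 of the 5811 genes tested. The windows with the lowest adjusted p among those that hold the elements are printed 5′ to 3′ on the strand of the gene, 3 from the mitosis list and 2 from the replication list. Capitals mark CCAAT (or ATTGG, its complement) and TTTGAA (or TTCAAA) on either strand, and matches to TTNNCGC, where NN is CC, GG, CG or GC, or to its complement.

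Cenpa, chr5:30666636-30666935, plus strand: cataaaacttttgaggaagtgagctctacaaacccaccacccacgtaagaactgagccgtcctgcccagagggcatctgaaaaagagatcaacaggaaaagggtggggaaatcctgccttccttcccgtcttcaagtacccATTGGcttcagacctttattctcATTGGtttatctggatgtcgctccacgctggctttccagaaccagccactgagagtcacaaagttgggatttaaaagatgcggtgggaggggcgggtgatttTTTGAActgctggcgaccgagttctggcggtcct
Prc1, chr7:80294201-80294500, plus strand: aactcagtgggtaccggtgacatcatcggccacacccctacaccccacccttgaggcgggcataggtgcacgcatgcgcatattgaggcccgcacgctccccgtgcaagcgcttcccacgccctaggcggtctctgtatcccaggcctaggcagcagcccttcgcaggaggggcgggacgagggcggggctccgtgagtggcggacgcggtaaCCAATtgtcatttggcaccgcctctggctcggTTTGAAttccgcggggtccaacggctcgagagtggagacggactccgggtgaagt
Cdca3, chr6:124829926-124830225, plus strand: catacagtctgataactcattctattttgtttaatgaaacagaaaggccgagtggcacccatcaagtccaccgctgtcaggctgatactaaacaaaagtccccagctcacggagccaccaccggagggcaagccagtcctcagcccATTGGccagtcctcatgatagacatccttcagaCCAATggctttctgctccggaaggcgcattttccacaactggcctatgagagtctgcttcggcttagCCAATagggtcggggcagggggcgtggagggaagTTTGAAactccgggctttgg
Rfc4, chr16:23127681-23127980, minus strand: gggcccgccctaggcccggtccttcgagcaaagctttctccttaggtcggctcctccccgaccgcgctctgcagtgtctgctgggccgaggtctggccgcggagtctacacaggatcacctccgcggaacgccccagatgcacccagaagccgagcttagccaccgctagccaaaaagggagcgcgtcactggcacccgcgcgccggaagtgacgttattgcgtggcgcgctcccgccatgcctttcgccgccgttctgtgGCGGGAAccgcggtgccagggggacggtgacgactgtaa
Rrm1, chr7:102441445-102441744, plus strand: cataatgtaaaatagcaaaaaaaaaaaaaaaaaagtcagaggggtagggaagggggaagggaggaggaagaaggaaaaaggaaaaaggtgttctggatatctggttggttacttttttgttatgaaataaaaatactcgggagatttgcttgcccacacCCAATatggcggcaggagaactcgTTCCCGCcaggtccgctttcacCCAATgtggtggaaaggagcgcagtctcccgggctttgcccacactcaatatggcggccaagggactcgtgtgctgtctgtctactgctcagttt

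In Cenpa, which encodes the histone variant of the centromere, 2 CCAAT boxes stood 109 and 86 bases before the start, and the CHR 17 bases after it. In Prc1, a protein of the central spindle, the CCAAT box stood 37 bases before the start and the CHR 5 bases before it. Cdca3 had CCAAT boxes 104, 71 and 4 bases before the start and the CHR 31 bases after it. Rfc4, a subunit of the clamp loader, had the E2F-type element 12 bases after the start and neither other element, and Rrm1 had it 67 bases before the start, between CCAAT boxes at 91 and 45 bases. Cenpa rose by 2.85 ± 0.37, Prc1 by 3.53 ± 0.44, Cdca3 by 2.72 ± 0.33, Rfc4 by 2.29 ± 0.38 and Rrm1 by 2.47 ± 0.43 on the log2 scale at full depth.

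CCAAT was held by 17 of the 22 mitosis windows (77.3%), by 9 of the 16 replication windows (56.2%) and by 1514 (38.9%) of the windows of all tested genes. TTTGAA was held by 16 mitosis windows (72.7%), 2 replication windows (12.5%) and 11.7% of all. The E2F-type element was held by 3 mitosis windows (13.6%), 7 replication windows (43.8%) and 17.8% of all. CCAAT and TTTGAA stood together in 15 of the 22 mitosis windows (68.2%), against 186 of 3889 (4.78%). These are shares of letter matches in 1 window per gene, and the sets were chosen by the test, so no test was made on them.

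**Figure D3:**
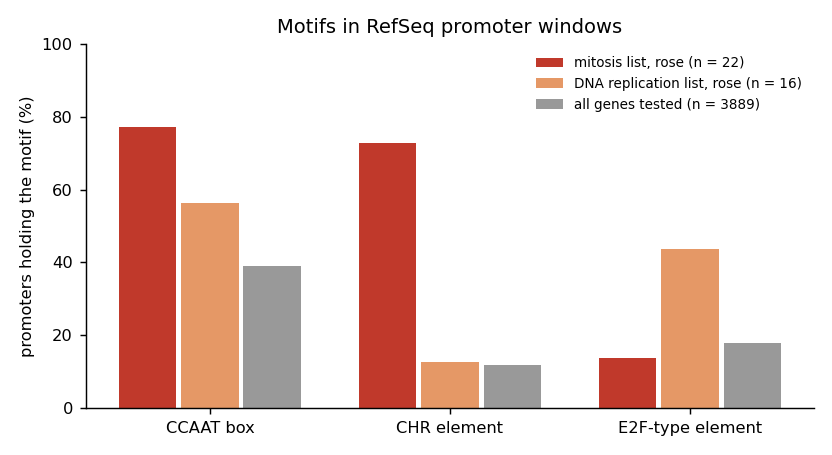
Percent of RefSeq promoter windows that hold a CCAAT box, the CHR element (TTTGAA) or the E2F-type element (TTNNCGC), for mitosis genes that rose (n = 22), DNA replication genes that rose (n = 16) and all genes tested at full depth (n = 3889). The CHR was held by 72.7% of the mitosis windows and by 12.5% of the replication windows, and the E2F-type element by 13.6% and 43.8%.

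Histone genes also rose. Of 8 genes of the Hist1 and Hist2 clusters that could be tested at 1000 UMIs, 7 rose, with a median log2 change of 2.38, and none of the 8 reached the filter in all negative sums. Of all tested genes 2.57% rose. Hist1h2ao, an H2A gene of the large cluster on chromosome 13 (21810465 to 21810944, plus strand), was at 956, 2580, 1000, 501 and 200 CPM in dividing clumps and at 53.2, 187, 42.5, 142 and 115 CPM in negative clumps (log2 change 2.98 ± 0.55, SE, adjusted p = 0.00184). Hist1h2ap was at 1840, 2470, 1050, 838 and 1000 CPM against 42.6, 228, 94.3, 330 and 218 CPM (2.56 ± 0.52, adjusted p = 0.00345). For each of them every dividing sum was above every negative sum. Hist1h2an, Hist2h2aa2, Hist1h2af, Hist2h2ac and Hist1h2ak rose by 2.19 to 2.5. These 7 were among the 36 genes that rose in all. At full depth 15 of 17 rose, beside 7.97% of all tested genes, with a median of 3.29, and 5 of the 6 that reached the filter in all negative sums were among the 15. The exception that fell was Hist1h2bc (log2 change −1.11, adjusted p = 0.00586). The H2A copies are nearly identical in sequence, so the division of UMIs among them is uncertain, and messages of this class usually lack the poly(A) tail by which the libraries were primed.

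Genes for proteins of chromatin and of the mitotic spindle rose in part. Of 40 listed genes, 18 could be tested at 1000 UMIs, 8 rose and none fell, with a median log2 change of 1.07. Of the 5 that reached the filter in all negative sums none rose. Under the replicate block 12 rose, and at full depth 26 of 35 rose, 13 of them among the 19 that reached the filter in all negative sums. Of all tested genes 2.57% rose at 1000 UMIs, 6.42% under the block and 7.97% at full depth. Hmgb2, a chromatin protein of proliferating cells, was at 511, 842, 721, 379 and 0 CPM against 53.2, 81.3, 56.6, 91.2 and 103 CPM (2.49 ± 0.42, adjusted p = 0.00109), so that only mouse 5 did not show the difference. H2afx, the H2A variant phosphorylated at DNA breaks, was at 622, 368, 475, 325 and 400 CPM against 17.7, 65.0, 51.9, 150 and 126 CPM (2.02 ± 0.50, adjusted p = 0.0118). Tubb5, a beta tubulin, was at 356, 316, 311, 255 and 200 CPM against 24.8, 40.7, 33.0, 83.1 and 80.5 CPM (2.16 ± 0.42, adjusted p = 0.00226). Neither H2afx nor Tubb5 overlapped between the classes. Set, a histone chaperone, and Ran, the small GTPase of nuclear transport and spindle assembly, rose by 1.66 ± 0.31 and 1.63 ± 0.33. Ssrp1, a subunit of the FACT histone chaperone, rose by 2.09 ± 0.43. H3f3b, which encodes the H3.3 variant made outside S phase, was at 822, 579, 475, 547 and 400 CPM against 617, 634, 561, 314 and 149 CPM, which overlapped, and did not pass (0.12 ± 0.30, adjusted p = 0.832).

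Among regulators of entry into the cell cycle a few genes rose and others fell. Ccnd2, or cyclin D2, was at 444, 263, 295, 354 and 200 CPM against 142, 122, 146, 150 and 80.5 CPM and rose by 1.07 ± 0.27 (adjusted p = 0.0136), with no overlap. At full depth Ccnd1 (1.41 ± 0.34, adjusted p = 0.00932), its partner kinase Cdk4 (1.77 ± 0.28, adjusted p = 0.000673) and Cdk6 (2.03 ± 0.55, adjusted p = 0.0179) also rose. Cdkn1a, the inhibitor p21, fell by 2.20 ± 0.31 on the log2 scale (adjusted p = 0.000309), and Mxd1, a repressor that opposes Myc, fell by 2.73 ± 0.41 (adjusted p = 0.000421), both lower in the dividing clumps of 5 of 5 mice. In all, 4 of 17 tested genes of this list rose and 2 fell, with a median of −0.14, beside 7.97% and 9.4% over all tested genes, so that the share that fell was near the background. Under the block at full depth 5 rose and 6 fell, beside 19.1% and 17.9%. Btg1, an antiproliferative gene, was at 156, 105, 98.4, 121 and 0 CPM against 106, 81.3, 108, 53.6 and 34.5 CPM and did not pass (0.35 ± 0.32, adjusted p = 0.483).

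**Figure D4:**
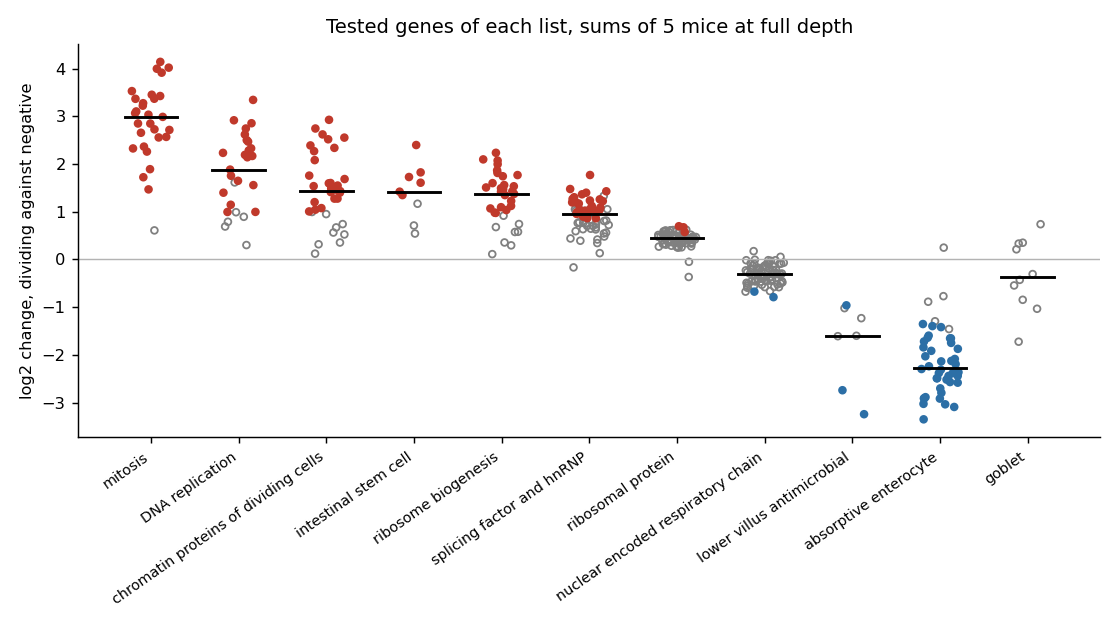
Log2 change between dividing and negative clumps at full depth for every tested gene of 11 lists, filled where the gene passed the test (red, rose; blue, fell) and open where it did not, with the list's median as a bar. The medians run from 2.99 for mitosis and 1.88 for DNA replication to −2.27 for absorptive enterocyte genes.

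Genes of growth and protein synthesis rose in part. Npm1, or nucleophosmin, was at 933, 895, 1110, 543 and 0 CPM against 287, 276, 307, 147 and 80.5 CPM (1.55 ± 0.38, adjusted p = 0.0121). Ncl, or nucleolin, was at 511, 579, 426, 597 and 0 CPM against 138, 236, 146, 172 and 46.0 CPM (1.43 ± 0.38, adjusted p = 0.0179). In both the values separated in mice 1 to 4 and overlapped only through mouse 5. These were 2 of 4 tested genes of ribosome biogenesis, and at full depth 25 of 33 rose and none fell, with a median of 1.37, where 7.97% of all tested genes rose. Of the 11 that reached the filter in all negative sums there, 7 rose. Of 15 tested splicing factors and hnRNPs 2 rose, Srsf1 (1.46 ± 0.34, adjusted p = 0.00869) and Snrpe (1.08 ± 0.30, adjusted p = 0.0251), whereas 6 rose under the block and 29 of 61 at full depth. The shares of all tested genes that rose were 2.57%, 6.42% and 7.97% in these fits, and with no filter none of the 61 passed. Of 18 chaperones 3 rose, the cytosolic Hsp90aa1 (1.57 ± 0.32, adjusted p = 0.00375) and the mitochondrial chaperonins Hspd1 (1.28 ± 0.32, adjusted p = 0.0135) and Hspe1 (1.05 ± 0.29, adjusted p = 0.0217), and under the block 5 rose, while with no filter none of 26 passed. Hspa8, the constitutive Hsp70, did not pass (0.36 ± 0.25, adjusted p = 0.366).

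Cytosolic ribosomal protein genes summed to 138300, 118500, 137400, 128700 and 73400 CPM in dividing clumps and to 85690, 83490, 86080, 80660 and 47620 CPM in negative clumps. Mouse 5 was low in both classes, and its dividing clumps lay below the negative clumps of the other mice. All 78 genes were tested and none passed, with 76 positive changes and a median of 0.42 against 0.04 over all genes. With the mouse as a replicate block 9 of the 78 rose, beside 6.42% of all tested genes, and at full depth with the block 59 rose, beside 19.1%. The crypt landmark list, which is made mostly of ribosomal protein genes, gave the same picture, with 26 of 26 changes positive and none passing (median 0.44), and 6 rising under the block. With no filter 57 of the 78 changes were positive, with a median of 0.08 against −0.23 over all genes.

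Of the metabolic lists, 17 genes of nucleotide and one-carbon synthesis could be tested at full depth. Of these 8 rose and 1 fell, with a median of 0.71, beside 7.97% and 9.4% of all tested genes. Only 8 of the 17 reached the filter in all negative sums, and of these 1 rose and 1 fell, so that most of the rises were of genes that needed the dividing sums to be tested. At 1000 UMIs 5 could be tested, none passed and 4 of the 5 changes were negative (median −0.46), whereas with no filter 24 of 30 were positive (median 1.1) and 1 rose. At full depth Paics and Gart, enzymes of purine synthesis, rose by 2.71 ± 0.38 (adjusted p = 0.000301) and 1.94 ± 0.43 (adjusted p = 0.00499), and Shmt1 and Shmt2, which feed one-carbon units, by 2.06 ± 0.43 (adjusted p = 0.00328) and 1.94 ± 0.42 (adjusted p = 0.0043). The gene that fell, by 0.83 ± 0.20 (adjusted p = 0.00862), was Aprt, which salvages adenine. Nuclear-encoded respiratory chain genes had a median of −0.38, with 3 of 69 falling and none rising, a smaller share than the 9.34% of all tested genes that fell. These were Cycs, or cytochrome c (−1.12 ± 0.34, adjusted p = 0.0399), Ndufb4 (−1.28 ± 0.39, adjusted p = 0.0411) and Ndufc1 (−1.05 ± 0.33, adjusted p = 0.0473). At full depth 2 of 72 fell, and Ndufb4 (adjusted p = 0.347) and Ndufc1 (adjusted p = 0.12) did not pass. Under the block 13 of the 69 fell, where 16.1% of all tested genes fell.

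Mature absorptive enterocyte genes fell. Of 26 tested, 25 fell, among the 131 genes that fell in all, and none rose, with a median log2 change of −2.36, and at full depth 41 of 46 fell (40 of 46 without mouse 4, 44 of 50 without mouse 5). Of all tested genes 9.34% fell at 1000 UMIs and 9.4% at full depth. At 1000 UMIs 21 of the 26 needed the negative sums to enter, and of the 5 that reached the filter in all dividing sums all 5 fell, as did 20 of 22 at full depth. With no filter 42 of all 53 fell and none rose, with a median of −2.7, beside 1.92% of all genes that fell. Sis, the brush border sucrase-isomaltase, was at 133, 52.6, 344, 65.6 and 200 CPM in dividing clumps and at 2450, 1290, 2340, 330 and 460 CPM in negative clumps. Its log2 change was −3.41 ± 0.55 (adjusted p = 0.000854), and the classes overlapped only through the dividing clumps of mouse 3 and the negative clumps of mouse 4. Anpep, the brush border aminopeptidase N, was at 22.2, 105, 197, 87.9 and 0 CPM against 1050, 650, 1320, 480 and 678 CPM (−3.32 ± 0.41, adjusted p = 0.000184). Vil1, the microvillus protein villin, was at 200, 263, 164, 266 and 0 CPM against 1280, 1280, 1100, 558 and 1020 CPM (−2.54 ± 0.33, adjusted p = 0.000212). For Anpep and Vil1 every dividing sum was below every negative sum. Further large falls were those of Mep1b, a brush border metalloprotease (−3.41 ± 0.52, adjusted p = 0.000702), Cyp4f14 (−3.28 ± 0.48, adjusted p = 0.00056), Rbp2, which binds retinol (−3.17 ± 0.50, adjusted p = 0.000783), the amino acid transporter Slc43a2 (−3.03 ± 0.41, adjusted p = 0.000333) and Pls1, a bundling protein of microvilli (−2.85 ± 0.44, adjusted p = 0.000702).

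Hnf4a, a transcription factor expressed along the whole epithelium, was the tested gene of the enterocyte list that did not fall. It stood at 378, 316, 410, 506 and 0 CPM against 337, 276, 340, 292 and 161 CPM (log2 change 0.19 ± 0.32, adjusted p = 0.75). Apoa1 fell by 3.03 ± 0.37 on the log2 scale, but it is a gene of the filter that both classes had to pass. Fabp1 and Fabp2, the fatty acid binding proteins, fell by 2.5 ± 0.52 and 2.27 ± 0.43, and Krt20, a keratin of mature cells, by 2.49 ± 0.46. The ribosomal RNA gene Rn18s-rs5 ranged from 262 to 800 CPM in dividing clumps and from 264 to 5340 CPM in negative clumps, where mice 4 and 5 had the highest values (2510 and 5340 CPM). It fell (−2.79 ± 0.83, adjusted p = 0.0352), and at full depth it did not pass (adjusted p = 0.11). With a stricter filter of under 0.1% apolipoprotein in both classes, 7 of 785 genes passed, of which Ube2c and Hmgb2 rose and 5 fell, Anpep and Vil1 among them. At full depth 349 of 4976 passed, of which 192 rose and 157 fell. There 35 of 39 mitosis genes rose and 24 of 39 enterocyte genes fell, and none of 10 stem cell genes passed (median 1.04). Genes could again enter through the class in which they were high, so these list counts are descriptions. Mouse 5 had too few dividing clumps to enter those fits.

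Antimicrobial genes of the lower villus fell in part. Of 5 tested, 2 fell, and 4 fell with the mouse as a replicate block, beside 9.34% and 16.1% of all tested genes. Reg3a, a secreted lectin, was at 44.4, 52.6, 32.8, 40.4 and 0 CPM against 213, 114, 231, 134 and 253 CPM (−2.45 ± 0.40, adjusted p = 0.000926), with no overlap. Lypd8, which keeps flagellated bacteria from the surface, was at 800, 947, 1210, 1550 and 1800 CPM against 1940, 2460, 2270, 2060 and 2940 CPM (−1.30 ± 0.30, adjusted p = 0.00853), again with no overlap. The more abundant Reg3b was at 1070, 2470, 5540, 2620 and 13000 CPM against 9320, 8420, 19800, 4460 and 20700 CPM and did not pass (−1.88 ± 0.61, adjusted p = 0.0527). Reg3b was lower in the dividing clumps of each mouse, although the classes overlapped, and under the block Reg3b fell (adjusted p = 5.4e-09). Reg3g, a lectin of the same family, likewise did not pass (−1.46 ± 0.49, adjusted p = 0.0643), was lower in 5 of 5 mice and fell under the block (adjusted p = 1.05e-07). At full depth Il18 fell by 3.24 ± 0.44 on the log2 scale (adjusted p = 0.000276) and Nlrp6 by 0.96 ± 0.27 (adjusted p = 0.023), while Lypd8 did not pass (adjusted p = 0.0573, or 7.68e-06 with the block). Under the block at full depth all 7 tested genes of the list fell, beside 17.9% of all genes.

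Of the stem cell list, Clca3b was the only gene that could be tested at 1000 UMIs. Clca3b was at 333, 368, 410, 916 and 1000 CPM against 138, 130, 236, 408 and 241 CPM, higher in each mouse but overlapping, and did not pass (log2 change 0.94 ± 0.44, adjusted p = 0.18), whereas with the replicate block it rose (adjusted p = 0.00883). With no filter none of 26 passed, with 23 positive changes (median 1.01). At full depth, 6 of 9 tested stem cell genes rose and none fell, with a median of 1.42, beside 7.97% of all tested genes that rose. Of the 9, 3 reached the filter in all negative sums and 2 of these rose, and the other 6 needed the dividing sums to be tested. The genes that rose were Cdca7 (2.4 ± 0.56, adjusted p = 0.00674), the ion cotransporter Slc12a2 (1.83 ± 0.40, adjusted p = 0.00491), Smoc2 (1.73 ± 0.47, adjusted p = 0.0185), Sox9, a transcription factor of crypt base cells (1.61 ± 0.39, adjusted p = 0.00861), Hopx (1.42 ± 0.32, adjusted p = 0.00579) and Clca3b (1.35 ± 0.41, adjusted p = 0.0302). Axin2, a target of Wnt signalling, changed by 1.17 ± 0.40 and did not pass (adjusted p = 0.0546, or 0.00489 with the block). The Notch targets Hes1 (1.41 ± 0.41, adjusted p = 0.0267) and Nrarp (1.62 ± 0.40, adjusted p = 0.00996) and the progenitor factor Sox4 (1.63 ± 0.49, adjusted p = 0.0302) rose, 3 of 4 tested genes of that list. None of the 4 reached the filter in all negative sums, and with no filter 1 of 14 rose (median 0.31).

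Markers of other cell types moved with the classes in some mice. Goblet cell genes (23) summed to 3111, 947, 5885, 3696 and 3200 CPM in dividing clumps and to 8032, 17940, 8410, 3357 and 4069 CPM in negative clumps, lower in 4 of 5 mice, and all 23 genes had UMIs in both classes. Of 8 tested goblet genes 3 fell, Zg16 (−2.63 ± 0.62, adjusted p = 0.00869), Tff3 (−1.81 ± 0.44, adjusted p = 0.0114) and Clca1 (−1.87 ± 0.53, adjusted p = 0.0258), and at full depth none of 10 passed, or 4 fell with the block. The shares of all tested genes that fell were 9.34%, 9.4% and 17.9% in these fits. Enteroendocrine genes reached 5737 CPM in the dividing and 1488 CPM in the negative clumps of mouse 2 and at most 272 CPM elsewhere. Intraepithelial lymphocyte genes were at 474 and 984 CPM in the dividing clumps of mice 2 and 3, at 423 CPM in the negative clumps of mouse 2 and at most 21.4 CPM elsewhere. In the negative class Cd3d, Cd3e, Cd247, Tcrg-C1, Cd69, Klrd1 and Xcl1 were at 0. Genes of other immune and blood cells reached 1467 CPM in the negative clumps of mouse 3, of which 1189 CPM was Igha, and at most 105 CPM elsewhere. Paneth genes ranged from 105 to 2481 CPM in dividing and from 268 to 5408 CPM in negative clumps, and all 20 had UMIs in both classes. In wells with no UMI of the lymphocyte and Paneth lists, 14 genes passed with edgeR, and in wells with at most 2 UMIs of the goblet, enteroendocrine and tuft lists 84 passed. The part of these cell types in the other differences was not tested.

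In mouse 4 the levels were graded with the number of marker UMIs. Every step held at least 79 wells there, and the mitosis list stood at 796 CPM in negative clumps, at 1402 and 1852 CPM in wells with 1 and 2 marker UMIs, at 2009 and 2633 CPM in clumps with 3 and 4, at 2858 CPM with 5 to 9 and at 4082 CPM with 10 or more. The replication list rose from 1019 CPM through 1497, 1861, 2055, 2316 and 2581 to 2773 CPM over the same steps. The absorptive enterocyte list was at 9335, 7698, 6102, 6191, 4456, 3947 and 3943 CPM. No step marked the threshold of 3 UMIs in mouse 4. The means over the 3 to 5 mice that entered each step were 546, 1620, 2650, 2430, 3340, 4790 and 5290 CPM for the mitosis list and 17500, 7760, 5680, 5460, 4240, 4080 and 3590 CPM for the enterocyte list. The replication list did not keep rising in such means, which include mouse 4, at 738, 2000, 2810, 2680, 2130, 3130 and 2730 CPM. The mice that entered differed between the steps. In mouse 3 alone the replication list stood at 712, 1576, 2424, 2643, 1308, 2444 and 2250 CPM. Against negative clumps, wells with 1 or 2 marker UMIs differed in 14 of 1358 tested genes, all of which fell, among them Vil1 (−1.48, adjusted p = 0.0225), Fabp2 (−1.84, adjusted p = 0.0478) and Anpep (−1.88, adjusted p = 0.0478).

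**Figure D5:**
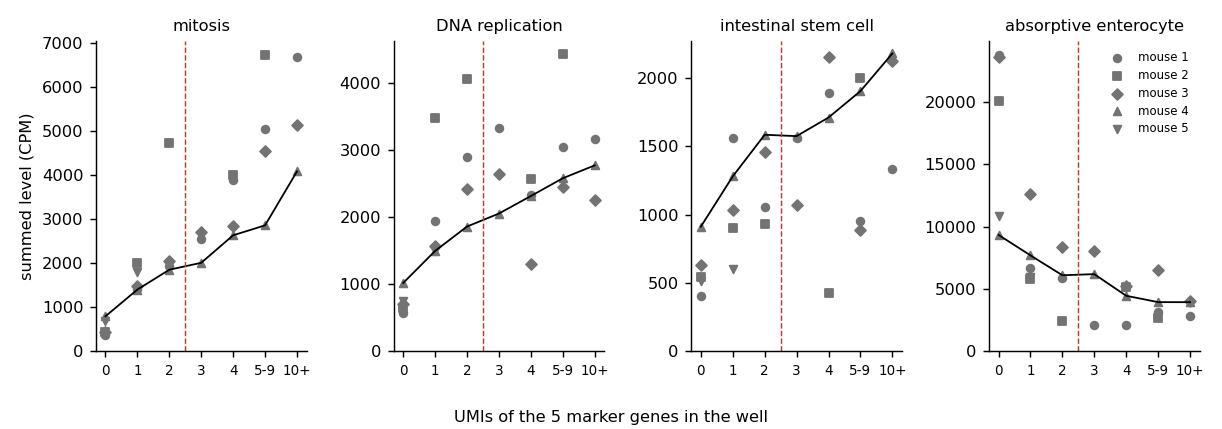
Summed level (CPM, wells thinned to 1000 UMIs) of 4 gene lists by the number of marker UMIs in the well, 1 symbol per mouse, with mouse 4 joined by a line and the threshold of 3 UMIs dashed. In mouse 4 the mitosis list rises from 796 to 4082 CPM and the enterocyte list falls from 9335 to 3943 CPM, with no break at the threshold.

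Over the 2375 wells past the filters, pooled over the mice, the genes whose thinned counts followed the marker sum most closely were Dmbt1 (Spearman's rho 0.413), Eef1a1, Hist1h2ap and Rpl4 (0.405 each), Rps2 (0.364), Hist1h2ao (0.358), Gm9800 (0.355) and Eef1b2 (0.341). The marker sum was taken at full depth, wells of 1 mouse and plate share their libraries, differences between mice enter the pooled values, and these values are a description. Within single mice rho was 0.126 to 0.313 for Dmbt1, 0.121 to 0.346 for Eef1a1 and 0.107 to 0.333 for Rpl4, whereas it was 0.301 to 0.591 for Hist1h2ap and 0.276 to 0.619 for Hist1h2ao. Dmbt1, a scavenger receptor of the mucosa, had a UMI in 79.1% of dividing and 40.7% of negative clumps at 1000 UMIs, pooled over mice. Over mice, Dmbt1 stood at 689, 737, 1430, 2740 and 3600 CPM against 301, 488, 896, 1350 and 828 CPM, higher in the dividing clumps of each mouse but overlapping, and did not pass (0.74 ± 0.48, adjusted p = 0.335). Under the replicate block Dmbt1 passed (adjusted p = 0.005).

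Dividing clumps held more different genes at 1000 UMIs in each mouse. There 661, 604, 662, 607 and 494 genes were detected in the mean dividing clump of mice 1 to 5 and 588, 536, 599, 480 and 424 genes in the mean negative clump. The difference was 80.2 genes, higher in 5 of 5 mice. The number of genes in a well was a value of the filter for both classes, so this difference is a description. An exact permutation within mice gave two-sided p = 0.0625, the smallest that 5 mice allow, so that this test could not pass. The mitochondrial share was also a value of the filter, which allowed up to 30% in both classes. Mitochondrial UMIs made up 3.62%, 3.23%, 4.71%, 6.02% and 16.7% of the dividing sums and 5.57%, 5.14%, 6.28%, 10.4% and 19.7% of the negative sums. The share was lower by 2.56 points in the mean and in 5 of 5 mice, which is given as a description. Among mitochondrially encoded genes, none of 10 passed in the fit across genes (median −0.94). Under the replicate block 9 fell, beside 16.1% of all tested genes. These genes are part of the share that the filter used, so their counts are descriptions too.

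Whether the difference between dividing and negative clumps depended on clump size could not be told apart from the mouse, since dividing sums of pairs came from mice 2 and 3 and those of larger clumps from mice 1, 4 and 5. The interaction called 0 of 2538 genes with edgeR, with 26 at an unadjusted p under 0.05, and 0 with DESeq2, with 7 at that level.

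The same rule was applied, without a test, to the single cells of the series, which the labels assign to mice 1 to 4. The labels do not say whether these are animals that also gave clumps. They give 3 months as the age, except for 3 of the 16 plates of mouse 2, where it is 4 months. All 30 dividing cells and 766 of the 810 negative cells of mouse 2 came from its plates of 3 months. It found 9, 30, 68 and 19 dividing cells and 104, 810, 647 and 228 negative cells with over 1000 UMIs. The mitosis list stood at 4680 CPM ± 1040 (SD, n = 4 mice) in dividing and 299 CPM ± 91.7 in negative cells, and the replication list at 3350 CPM ± 1200 and 642 CPM ± 129. The ratios of 15.7 and 5.22 compare with 6.63 and 3.21 in clumps. The stem cell list had nearly the ratio seen in clumps, 2.71 against 2.70. Hist1h2ao stood at 1360 CPM ± 358 in dividing cells and 18.6 CPM ± 6.87 in negative cells. Negative single cells differed from negative clumps in makeup, with goblet genes at 33100 CPM ± 39700 and genes of other immune and blood cells at 27800 CPM ± 14200, against 8360 CPM ± 5820 and 311 CPM ± 646 in clumps. Per the study's methods the single cells were sorted as Epcam-positive and CD45-negative, apart from a gate for tuft cells that did not use CD45. The dividing single cells also carried immune genes, and Ptprc, which encodes CD45, stood at 222 CPM ± 117 in them and 292 CPM ± 112 in the negative cells. The intraepithelial lymphocyte list stood at 2000, 14230, 1750 and 5263 CPM in the dividing cells of mice 1 to 4 and the list of other immune and blood cells at 4778, 2833, 4588 and 8053 CPM, against means of 293 CPM ± 437 and 38.0 CPM ± 46.5 in dividing clumps. The part of these cells in the ratios was not tested. In the single cells, cyclins and inhibitors of G1 stood at 1360 CPM ± 268 in dividing and 1950 CPM ± 394 in negative cells, lower in the dividing cells of 4 of 4 mice, whereas in clumps they were higher in the dividing class of 5 of 5 mice, at 1350 CPM ± 325 against 1020 CPM ± 184. The difference between clumps and cells was not tested.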

How the data were processed

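The authors deposited raw UMI counts per gene and well, as whole numbers in 1 table of clumps and 1 of single cells, before background subtraction and normalization. Per the submitters' processing notes, bcl2fastq 2.15.0.4 and the GRCm38 build were used, and the study's methods name STAR within zUMIs. Wells of empty positions are not named in the tables, so background was not subtracted, and no doublet caller was run, since a clump is meant to hold several cells. Each of the 384 well barcodes recurs on more than 1 plate, as a plate position.

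Wells were classed by the stated rule, thinned without replacement to 1000 UMIs (seed 11) and summed per mouse where a class held at least 5 wells. Sums were tested with edgeR 4.0.16 (R 4.3.3, TMM, filterByExpr, quasi-likelihood test, Benjamini-Hochberg at 0.05). The standard error is the absolute log2 change divided by the square root of F. Alternatives used DESeq2 1.42.0, its size factors, other filters, depths and thresholds, and the mouse as a block. The classes of 1 mouse come from the same animal, and their deviations from the class means correlated at 0.282, 0.27, 0.315, 0.4 and 0.196 in mice 1 to 5. The test across genes was checked on simulated data.

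Named genes were the 12 largest rises and falls among those that passed and changed the same way in every mouse, with at least 30 thinned UMIs, and up to 4 passing and 2 non-passing genes of each list. The members and gene lists were chosen with earlier results of these data known. Mouse 6, with 2 dividing clumps, was not used.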

Additional observations from a re-analysis of the deposited data

Results flagged for a closer look

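In 10 of 37 groups of 5 mice that were examined, the highest or lowest mouse lay far from the others by Dixon's criterion, where chance gives about 1 in 20 independent groups. The groups share the same 5 mice and some lists overlap, so that rate is only a rough guide. Mouse 5 was low in ribosome biogenesis genes in dividing clumps (1000 CPM), in ribosomal protein genes in negative clumps (47620 CPM) and in the crypt landmark list in both classes (18400 CPM in dividing and 12570 CPM in negative clumps), and its dividing clumps had the highest mitochondrial percent (16.7). Its dividing sum rests on 5 wells. Mouse 2 was high in enteroendocrine genes in both classes (5737 CPM in dividing and 1488 CPM in negative clumps) and in intraepithelial lymphocyte genes in negative clumps (422.8 CPM). The negative clumps of mouse 3 were high in genes of other immune and blood cells (1467 CPM) and of stroma and endothelium (316 CPM).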

How the results depend on the processing

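The 167 genes that passed became 210 with DESeq2 size factors, 194 with DESeq2 and 179 with another seed of the thinning, all within 1.5 times. They became 428 with no filter on low counts, 276 with wells thinned to 2000 UMIs, 263 when a dividing clump needed 5 marker UMIs and 1009 at full depth, where more genes could be tested. The share of calls that rose was 21.6% at 1000 UMIs, 45.9% at full depth and 51.6% at full depth with the block. The count fell to 62 with wells matched on UMIs, which left 469 dividing clumps unmatched. Mice 4 and 5 then still had medians of 22293 against 4337.5 and 17557 against 5218 UMIs. The count fell to 51 in larger clumps, 0 in pairs, 14 for wells with 1 or 2 marker UMIs, 7 under 0.1% apolipoprotein, 14 without lymphocyte and Paneth UMIs and 84 with few secretory UMIs. Each of these also left fewer wells or samples, and beyond that the cause was not tested. Leaving out 1 mouse gave 93 to 267 genes, with 98 without mouse 1, 93 without mouse 3 and 267 without mouse 5. The mouse as a replicate block gave 316. Chosen after seeing the data, the block at full depth gave 2146 genes, the block under 0.1% apolipoprotein 48, full depth under 0.1% apolipoprotein 349, and full depth without 1 mouse 381 to 1623 (500, 939, 381, 959 and 1623 without mouse 1 to 5). DESeq2 gave 26 in pairs, 37 without lymphocyte and Paneth UMIs and 39 under 0.1% apolipoprotein.

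The interaction stayed at 0 genes in all alternatives but without mouse 3 (0 to 1), when Gip passed (log2 difference −8.91, adjusted p = 0.0221). Dividing pairs then came from mouse 2 alone, the mouse high in enteroendocrine genes, and that lone sum was assumed to vary like the others. The share of dividing clumps, larger clumps minus pairs, stayed positive, at 2.14 to 28.3 points without 1 mouse and 24.3 with the replicate block. The differences in genes per clump and mitochondrial share kept their direction throughout, at 68.4 to 84.4 genes and −2.8 to −2.1 points without 1 mouse.

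None of the 50 named genes that passed changed direction in the alternatives run for single genes. Among those that had not passed, H3f3b was at −0.01 with DESeq2 and with its size factors, −0.24 with no filter and in pairs, −0.23 with matched wells, −0.33 with 1 or 2 marker UMIs and −0.06 without lymphocyte and Paneth UMIs, and at −0.07 to 0.18 without 1 mouse (below 0 without mouse 1, 4 or 5). In pairs Btg1 was at −0.02, Polr1d at −0.08 and Pa2g4 at −0.31. Hnf4a was at −0.08 with no filter and with matched wells, −0.22 without lymphocyte and Paneth UMIs and −0.09 to 0.18 without 1 mouse (below 0 without mouse 4). Spink4 was at 0.33 at full depth, 0.25 at 2000 UMIs, 0.20 with matched wells, 0.13 in larger clumps and −0.44 to 0.09 without 1 mouse (above 0 without mouse 2). Agr2 was at 0.35 at full depth, 0.37 at 2000 UMIs, 0.01 with 1 or 2 marker UMIs and −0.77 to 0.00 without 1 mouse. Sfn was at 0.03 in larger clumps and with 5 marker UMIs, and at −0.19 to 0.11 without 1 mouse (above 0 without mouse 2 or 5).

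Depth limits the dividing sums of mouse 5 (5 wells) and mouse 2 (19 wells) most, and mouse 4 gave 84.7% of the dividing clumps but 1 of 5 values in each test.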
